A study of Mus musculus with 8 samples.

Results

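Genes of the Bcl-2 family, which decide whether the outer membrane of mitochondria stays intact and so whether a cell lives or dies by the intrinsic route of apoptosis, were read in pancreatic islets of mice that lacked Fzd9 and of mice that had it. A list of 10 genes was used: Bcl2, Bcl2l1, Mcl1, Bax, Bak1, Bcl2l11, Pmaip1, Bbc3, Bid and Bad. Each gene was taken on its probe set with exactly 1 gene symbol, and on the brightest over the 8 arrays where there were more. By this rule 9 of the 10 genes could be read, among 22180 genes in all, and Bax was not analysed here because no probe set carried its symbol alone in the annotation used. The rule itself reads no difference between the genotypes, but the list was drawn up with earlier results of these data known.

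The 4 KO mice were homozygous for the deletion of Fzd9 and the 4 WT mice had both wild-type alleles. All 8 were C57Bl/6 mice with the MycER and BclXL transgenes and all received tamoxifen for 3 days, so no mouse without active MycER and none without BclXL is among them. MycER is a Myc protein fused to an estrogen receptor part that tamoxifen switches on, and BclXL is a Bcl-xL transgene that keeps the Myc-driven β-cells alive. Both are driven by insulin promoters and so act in β-cells, whereas Fzd9 was deleted in the whole animal. Mice of both sexes between 8 and 12 weeks of age were used in the study. From each mouse about 20 to 40 islets were picked by hand and pooled, and the RNA went onto a single Affymetrix array. The sample labels name the material insulinoma and describe weighed tumor tissue, in conflict with the islet pools of the methods. In such bulk RNA, fewer cells of a type and less RNA per cell cannot be told apart.

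The family works as a balance. Bcl-2, Bcl-xL and Mcl-1 guard the cell by holding the killer proteins. Bax and Bak are the effectors that open pores in the outer membrane, through which cytochrome c leaves and starts the caspases. The BH3-only proteins, Bim (Bcl2l11), Noxa (Pmaip1), Puma (Bbc3), Bid and Bad, sense stress, damage or a lack of growth signals and either occupy the guardians or push the effectors. High Myc activity is known to sensitise β-cells to this death, which is why Bcl-xL is added in this mouse model. Many members are controlled by cleavage, phosphorylation or protein decay, none of which an RNA level shows.

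Expression is given as log2 values after RMA, a method that subtracts background, evens out the arrays and merges the probes of a set. A step of 1 is a doubling. Log2 fold changes are KO minus WT. The words rose and fell are used where limma gave an unadjusted p under 0.05 and the fold change was at least 1.2, the cutoff of the study, and this is called the threshold. Of all 41345 probe sets 3.49% passed it, 1.59% lower and 1.9% higher in KO islets, and no probe set passed at a Benjamini-Hochberg adjusted p under 0.05 by limma. The balance between lower and higher turned with the scaling of the arrays: 658 probe sets were lower and 786 higher as deposited, against 796 and 726 after quantile normalization, 773 and 631 after median centring and 799 and 735 after cyclic loess. Levels of different genes are not set against each other, since each probe set has its own brightness. As a gauge of background, 1407 probe sets for olfactory and vomeronasal receptors were used, 95% of which averaged at most 3.68 in KO and 3.46 in WT islets. The Fzd9 probe set stood at 2.68, 2.76, 2.65 and 2.01 in KO mice 1 to 4, against 3.44, 1.97, 2.78 and 3.31 in WT mice 1 to 4. All lay under these limits, which are drawn from group means. Set against the 95% limit of each array, WT mouse 1 was above its limit of 3.14 and the other mice were under theirs. The log2 fold change of Fzd9, -0.35 (standard error 0.34), did not pass the threshold. It was -0.65 and passed without WT mouse 2, and was -0.16 without WT mouse 1. Where the probes of Fzd9 lie with respect to the deleted stretch is not stated, so the probe set cannot serve as a check of the labels. Markers of β-cells averaged between 6.56 and 6.74 in KO mice and between 6.41 and 7.35 in WT mice over 12 genes. KO mouse 1 and WT mouse 3 stood apart: 29 markers of acinar cells, the enzyme-making exocrine cells around the islets, averaged 6.05 in KO mouse 1, 5.03 in WT mouse 3 and no more than 4.38 elsewhere. Their arrays also had the lowest mean correlations with the other arrays, 0.893 and 0.897, against 0.917 to 0.926 elsewhere. The medians over all probe sets (3.17 and 3.13) and over the receptor gauge (2.37 and 2.28) were the highest in these mice too.

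The effector Bak1 fell in KO islets. It was the only call among the 9 genes, the other 8 being short of the threshold in either direction, where 3.49% of all probe sets and 2.45% of the brightest probe sets of all genes passed. The log2 fold changes ran between -0.62 for Bak1 and 0.45 for Bbc3, with 7 below 0 and 2 above 0. The 7 include Bid, at -0.000735, and Mcl1, whose 2 probe sets differed in sign. The median of the 9 genes was -0.20, beside a median of 0.02 over all probe sets and of 0.00075 over probe sets with 1 gene. The adjusted p-values of limma over all probe sets were 1.00 for each of the 9.

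**Figure D1:**
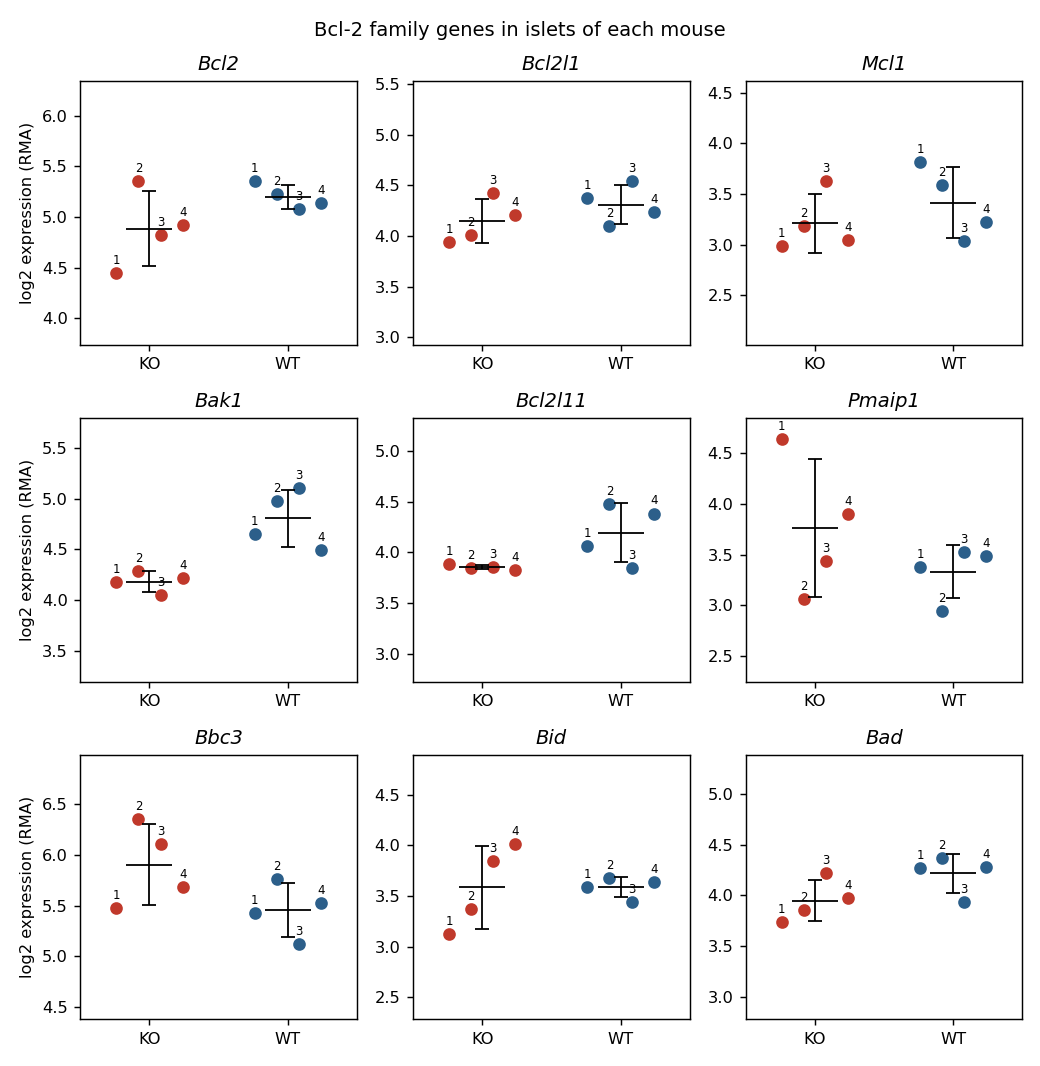
Log2 expression of the 9 genes in each mouse, KO left of WT in every panel, with the mouse number above each point and bars for the mean ± SD (n = 4 each). Each panel spans the same height on the log2 scale; only for Bak1 do all 4 KO points lie below all 4 WT points, and the 4 KO points of Bcl2l11 nearly coincide.

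Bak1 encodes Bak, an effector that sits in the outer membrane of mitochondria. Its probe set was at 4.18, 4.29, 4.05 and 4.21 in KO mice 1 to 4, against 4.65, 4.98, 5.10 and 4.49 in WT mice 1 to 4. Every KO mouse lay below every WT mouse, the nearest values being 4.29 in KO mouse 2 and 4.49 in WT mouse 4. Of all probe sets, 1.06% separated in this direction and 2.36% in either direction. The means were 4.18 ± 0.10 in KO and 4.81 ± 0.28 in WT islets (SD, n = 4 each), and their difference on the log2 scale was -0.62 (standard error 0.20, 95% interval -1.07 to -0.17), which is 0.649 of the WT level. The unadjusted p of limma was 0.0114, which ranked 301 among the 41345 probe sets, and the adjusted p was 1.00. The exact two-sided permutation test over the 8 mice gave p = 0.0286, the smallest that 4 against 4 allow. The WT values spread more widely than the KO values, and WT mouse 3, with the highest acinar markers among the WT mice, was the highest. Without WT mouse 3 the log2 fold change was -0.52, and it was -0.52 too without both this mouse and KO mouse 1, past the threshold each time. Bak1 passed the threshold in each of the 8 fits that left out 1 mouse, with log2 fold changes between -0.73 and -0.52. Both group means lay above the 95% limit of the receptor gauge, at percentile 97.7 of it in KO and 99.5 in WT islets. Mouse by mouse, Bak1 in KO mouse 1 (4.18) was under the limit of that array, 4.57, and in KO mouse 4 (4.21) it was level with the limit of 4.19, while the other 6 values lay above the limits of their arrays. Of the 9 genes, 7 were under the limit in KO mouse 1, 5 in KO mouse 4, 5 in WT mouse 3 and 0 to 3 in the others.

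The sequence in front of the Bak1 start is shown because Bak1 was the only member past the threshold, and one in front of Bbc3, the member with the highest log2 fold change, stands beside it for contrast. Both are the 250 bases before an annotated RefSeq start in GRCm38.p6, written 5′ to 3′ on the strand of the gene (Bak1, chr17:27028628-27028877, minus strand; Bbc3, the most downstream of its annotated starts, chr7:16310181-16310430, plus strand), with matches to searched motifs in capitals.
Bak1: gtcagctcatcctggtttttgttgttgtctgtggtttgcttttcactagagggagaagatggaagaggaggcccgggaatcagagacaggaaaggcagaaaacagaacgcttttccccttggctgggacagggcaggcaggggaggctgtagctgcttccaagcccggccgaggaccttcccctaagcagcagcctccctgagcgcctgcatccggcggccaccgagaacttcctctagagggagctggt
Bbc3: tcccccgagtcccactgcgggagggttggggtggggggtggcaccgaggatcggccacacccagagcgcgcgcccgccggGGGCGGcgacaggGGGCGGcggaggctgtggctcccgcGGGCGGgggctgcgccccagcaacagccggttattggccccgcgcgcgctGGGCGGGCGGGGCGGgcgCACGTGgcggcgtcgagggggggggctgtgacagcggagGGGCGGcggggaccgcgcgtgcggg
Windows of 250 bases were searched on both strands for CACGTG, the E-box that Myc and Max can bind, for TGANTCA, which AP-1 factors such as Jun can bind, for the palindromic CRE of CREB and ATF factors, for GGGCGG, the GC box, and for TATAAA, the TATA box. Matches of one motif may overlap. The Bak1 window held none of them. The Bbc3 window held 1 E-box, at position -64 counted from the start, and 7 GC boxes. The windows of the other Bbc3 starts held no E-box, and 5 and 1 GC boxes. Promoter windows were searched for 14 starts of 8 member genes, and Pmaip1 was left out. An E-box was found in 1 of the 14 and in 6.02% of 32851 windows of this length over all genes, TGANTCA in none and in 6.75%, the CRE in none and in 1.55%, a TATA box in none and in 12.4%, and a GC box in 9 of the 14 and in 32.7%. Windows of 1 gene can overlap, as neighbouring ones of Bbc3 do, and a match describes the letters only.

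None of the guardians Bcl2l1, Bcl2 and Mcl1 passed the threshold. Bcl2l1 encodes Bcl-x, whose long form Bcl-xL is also the transgene of these mice. It was at 3.94, 4.01, 4.42 and 4.21 in KO mice, against 4.37, 4.10, 4.54 and 4.23 in WT mice 1 to 4. The genotypes overlapped over most of their range. The log2 fold change was -0.16 (standard error 0.20) with a 95% interval of -0.61 to 0.28, that is 0.657 to 1.21 times the WT level. All 8 mice carry the transgene, and whether the probe set reads its transcript, or tells the long from the short form, is not stated.

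Bcl2, the founding guardian, was at 4.44, 5.35, 4.82 and 4.92 in KO mice 1 to 4, against 5.35, 5.22, 5.07 and 5.14 in WT mice 1 to 4. KO mouse 1 was the lowest and KO mouse 2 level with the highest WT mouse. The log2 fold change was -0.31 (standard error 0.22, 95% interval -0.81 to 0.19), and leaving out single mice moved it between -0.47 and -0.16. A second Bcl2 probe set had the opposite sign (0.20, standard error 0.22), but its means of 1.76 in KO and 1.56 in WT islets lay at percentiles 21.0 and 15.3 of the receptor gauge. The 2 probe sets thus disagree, and the dimmer one lay within the range of the background gauge.

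Mcl1 encodes a guardian protein that is made and destroyed within hours. Its brighter probe set was at 2.99, 3.18, 3.63 and 3.05 in KO mice 1 to 4, against 3.82, 3.59, 3.03 and 3.23 in WT mice 1 to 4. High and low mice occurred in both genotypes, and the log2 fold change was -0.20 (standard error 0.24, 95% interval -0.74 to 0.34). The second Mcl1 probe set gave 0.25 (standard error 0.24), and the mean of both gave 0.02, so that no direction can be given for this gene. Both probe sets were under the 95% limit of the receptor gauge in both genotypes, at percentiles 90.1 and 91.5 in KO and 94.5 and 90.5 in WT islets, and a difference could be missed at this brightness.

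Among the BH3-only genes none passed the threshold, and their log2 fold changes went both ways. Bcl2l11 encodes Bim, which binds all guardians. Its KO values were 3.88, 3.85, 3.86 and 3.83, against WT values of 4.07, 4.48, 3.84 and 4.38 in mice 1 to 4. The 4 KO mice were nearly equal, and 3 WT mice lay above all of them while WT mouse 3 lay among them. The log2 fold change was -0.34 (standard error 0.20, 95% interval -0.78 to 0.11, unadjusted p = 0.120 by limma). Without WT mouse 3 it was -0.46 and passed the threshold, and with arrays weighted by their quality it was -0.43 and passed too. Without WT mouse 3 and KO mouse 1 together it was -0.46 and did not pass. The KO SD was 0.021, at percentile 0.0339 of the KO SDs of all probe sets, and the WT SD was 0.29, at percentile 36.0 of the WT SDs. This spread was singled out after the values had been seen and was not tested. Bcl2l11 was under the gauge limits of the arrays in KO mice 1 and 4 and WT mouse 3, at 4.57, 4.19 and 4.03. In the other mice it was above the limits.

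Bbc3 encodes Puma, which p53 and other stress factors induce. It was at 5.47, 6.35, 6.11 and 5.69 in KO mice 1 to 4, against 5.43, 5.76, 5.12 and 5.53 in WT mice 1 to 4. KO mice 2 and 3 lay above every WT mouse, and KO mice 1 and 4 lay within the WT range. The log2 fold change was 0.45 (standard error 0.25, 95% interval -0.11 to 1.00, unadjusted p = 0.104 by limma). Leaving out KO mouse 1, the mouse with the most acinar RNA by its markers, gave 0.59, which passed the threshold, as did 0.51 after cyclic loess normalization. Without KO mouse 2 it was 0.30, and without KO mouse 1 and WT mouse 3 together 0.48, neither of which passed. Its levels were at percentile 99.9 of the receptor gauge in both genotypes.

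Pmaip1 encodes Noxa, a partner that binds chiefly Mcl-1. It was at 4.64, 3.06, 3.44 and 3.90 in KO mice 1 to 4, against 3.38, 2.95, 3.52 and 3.48 in WT mice 1 to 4. The genotypes overlapped, and KO mouse 1 was the highest of the 8. The log2 fold change of 0.43 had the widest standard error of the 9 genes, 0.33, and a 95% interval of -0.31 to 1.16. Without KO mouse 1 it was 0.13. In this mouse the 95% limit of the receptor gauge was 4.57, close to the Pmaip1 value there, and between 3.14 and 4.19 in the other mice. Pmaip1 was under the gauge limits of the arrays in KO mice 2, 3 and 4 and in WT mice 2, 3 and 4. Its means were at percentiles 95.5 in KO and 93.4 in WT islets of the receptor gauge, so the size of the difference is uncertain.

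Bad, which growth factor signals keep inactive by phosphorylation, was at 3.74, 3.86, 4.22 and 3.98 in KO mice 1 to 4, against 4.27, 4.37, 3.94 and 4.28 in WT mice 1 to 4. Each of the 4 KO mice lay below 3 of the WT mice, and WT mouse 3 lay below KO mice 3 and 4. The log2 fold change was -0.27 (standard error 0.20, 95% interval -0.71 to 0.17), and without WT mouse 3 it was -0.36, still short of the threshold. Bid, which caspase-8 cleaves to carry death receptor signals to mitochondria, was at 3.13, 3.37, 3.84 and 4.01 in KO mice 1 to 4, against 3.59, 3.67, 3.44 and 3.64 in WT mice 1 to 4. The 4 WT mice lay between KO mice 2 and 3, so the KO mice fell on both sides of them. The means were 3.59 ± 0.41 in KO and 3.59 ± 0.10 in WT islets (SD, n = 4 each). The 95% interval of the log2 fold change was -0.52 to 0.52. Bid was under the gauge limits of the arrays in KO mice 1 and 4 and in WT mice 2, 3 and 4. Its means were at percentiles 94.3 in KO and 95.6 in WT islets of the receptor gauge, and a difference could be missed at this brightness.

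**Figure D2:**
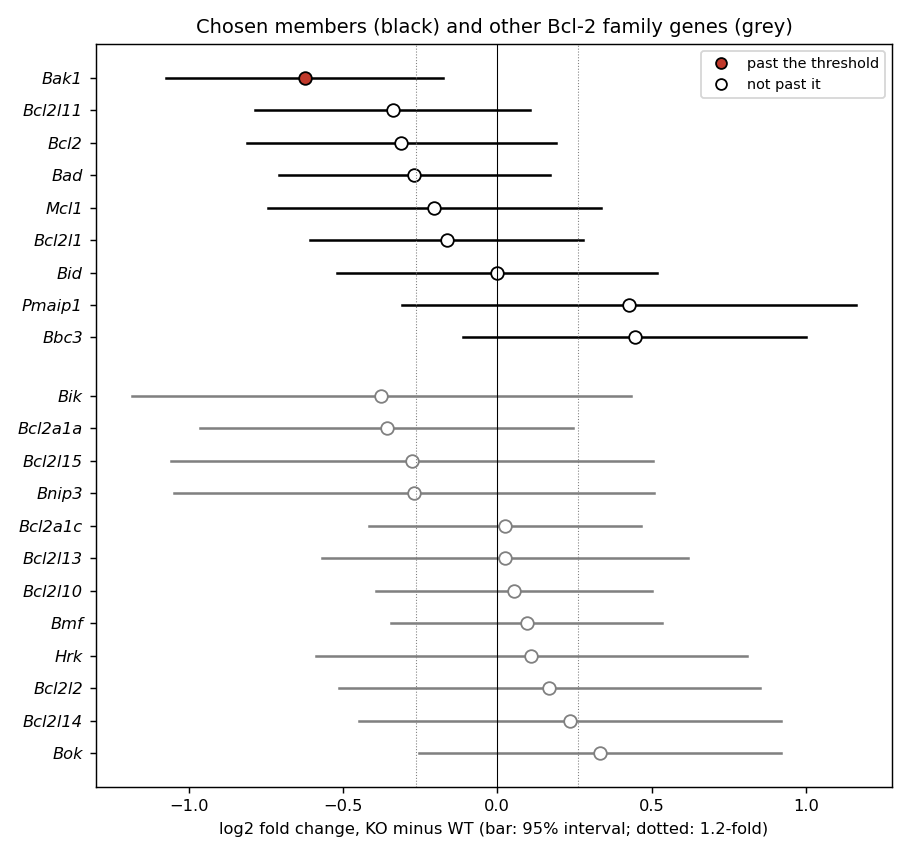
Log2 fold changes, KO minus WT, of the 9 chosen genes (black) and of 12 other Bcl-2 family genes (grey) on the horizontal axis, with 95% intervals from limma and dotted lines at a 1.2-fold change. Bak1 is the only filled point, the only one past the threshold, and the other intervals include 0.

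Across the 9 genes the mice differed in more than genotype. Of the 9, 5 were at their lowest of all mice in KO mouse 1, and 1 was at its highest there. Averaged over the 9 genes, KO mouse 1 was at 4.05 and KO mice 2 to 4 between 4.15 and 4.26, while the WT mice lay between 4.18 (WT mouse 3) and 4.35. The acinar markers were highest in KO mouse 1 and WT mouse 3, and their part in the levels was not tested. For 6 genes the KO values had the wider SD and for 3 genes (Mcl1, Bak1 and Bcl2l11) the WT values did. With KO mouse 1 and WT mouse 3 both dropped, a choice made after seeing the data, Bak1 was still the 1 gene past the threshold, and the median log2 fold change was -0.21. None of 7 lists of cell type markers (acinar, β-, other endocrine, duct, endothelial, stromal and immune cells) had KO mouse means that lay apart from the WT means. Of their 96 measured genes, 1 fell (Vwf, an endothelial gene) and none rose. Over the brightest probe sets of all 22180 genes, 1.17% were lower and 1.28% higher. Vwf was at -0.74 on the log2 scale. It did not pass without KO mouse 1, 3 or 4 or without WT mouse 1 or 2, at -0.77 to -0.52. Nor did it pass by the methods' t-test. Its means were at percentiles 79.3 in KO and 95.2 in WT islets of the receptor gauge, near background.

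**Figure D3:**
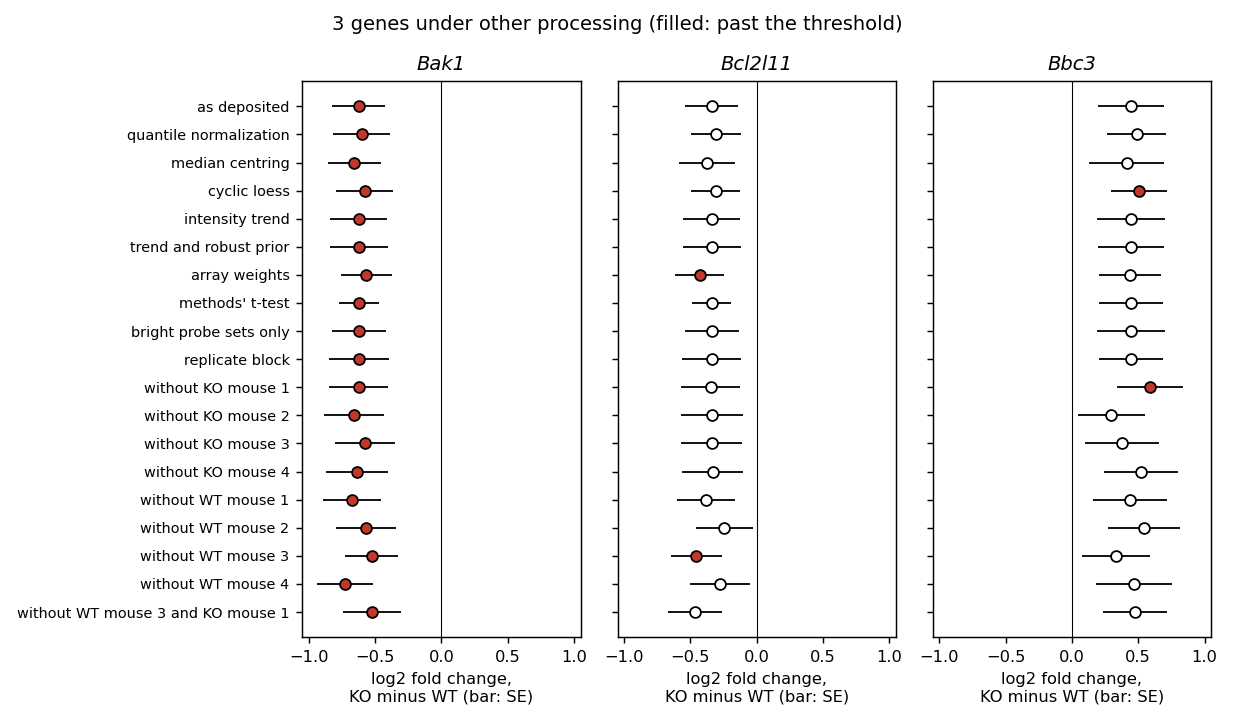
Log2 fold changes, KO minus WT, with standard errors (horizontal axis) of Bak1, Bcl2l11 and Bbc3 under each way of processing the arrays (rows), with filled points past the threshold. Bak1 is filled in every row, Bcl2l11 with array weights and without WT mouse 3, and Bbc3 after cyclic loess and without KO mouse 1.

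Of 16 further genes of the Bcl-2 family 12 could be read, and none passed the threshold. Of the 12, 8 had both group means under the limits of the receptor gauge (Bcl2a1a, Bcl2a1c, Bcl2l10, Bcl2l14, Bcl2l15, Hrk, Bmf and Bnip3), so that a missing call says little of them. Over the 12, their median log2 fold change was 0.04, with values between -0.38 and 0.33. Bok, a Bax-like effector, was at 4.60 to 5.22 in KO islets (median 5.03), against 4.09 to 5.16 in WT islets (median 4.65). The ranges overlapped, and the log2 fold change was 0.33 (standard error 0.26), or 0.15 without WT mouse 3. Bik, a BH3-only protein of the endoplasmic reticulum, was at 2.94 to 3.54 in KO islets, against 2.81 to 4.48 in WT islets. The difference of -0.38 on the log2 scale (standard error 0.36) was -0.06 without WT mouse 2 and -0.61 without WT mouse 1. The KO mean of Bik was under the limit of the receptor gauge, at percentile 89.2, and the WT mean was at percentile 95.4, so the size of this difference is uncertain. The guardians Bcl2l2 (Bcl-w) and Bcl2a1a (A1) did not pass either. Bcl2l2 was at 0.17 (standard error 0.31) and Bcl2a1a at -0.36 (standard error 0.27), with Bcl2a1a past the threshold only without WT mouse 4, at -0.60. It belongs to a cluster of near-identical copies that probes may not tell apart. The dim BH3-only genes Bmf and Hrk were at 0.09 and 0.11, and Bcl2l10, also dim, at 0.05.

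Genes that act beside the family were counted in 6 further lists, on the brightest probe set of each gene, where 2.45% of all genes passed the threshold. Caspases, their activators and their inhibitors gave no call among 19 genes, and the log2 fold changes of the list had a median of -0.19. The lowest unadjusted p belonged to Cflar, the caspase-8 decoy c-FLIP, at -0.32 (standard error 0.23). Of 9 death receptor genes 1 fell and none rose. It was Tnfrsf21, the death receptor DR6, at 3.96, 4.14, 3.50 and 3.47 in KO mice 1 to 4, against 4.83, 4.70, 5.05 and 3.84 in WT mice 1 to 4. WT mouse 4 lay among the KO mice, and the log2 fold change was -0.84 (standard error 0.29). It did not pass without WT mouse 3 (-0.69), without KO mouse 4 (-0.74) or without WT mouse 3 and KO mouse 1 together (-0.75). Tnfrsf21 was under the gauge limits of the arrays in KO mice 1 and 4, 4.57 and 4.19. It was level with the limit of 3.48 in KO mouse 3 and above the limits in the other mice. Its KO mean was at percentile 95.7 of the receptor gauge, so the size of the fall is uncertain.

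Of 13 genes for factors that can switch killer genes on or off, 3 fell (Jun, Myc and Atf3) and the rest did not pass. The median of the list was -0.13. Jun, an AP-1 subunit that can induce Bim, was at 7.90, 7.93, 7.92 and 7.96 in KO mice 1 to 4, against 8.996, 9.81, 9.25 and 9.44 in WT mice 1 to 4. Its log2 fold change was -1.45 (standard error 0.21, adjusted p = 0.605 by limma). Myc was at 4.05, 3.47, 3.69 and 3.78 in KO mice 1 to 4, against 4.23, 5.34, 4.28 and 4.63 in WT mice 1 to 4, without overlap, and its log2 fold change was -0.87 (standard error 0.27, adjusted p = 1.00 by limma). In KO mice 1 and 4 Myc was under the gauge limits of those arrays, 4.57 and 4.19, and in the other mice above theirs. Its KO mean was at percentile 95.3 of the receptor gauge, so the size of the fall is uncertain. Whether this probe set also reads MycER RNA is not stated. The stress factor Atf3 fell by 1.95 on the log2 scale (standard error 0.61), with WT mouse 1, at 4.75, inside the KO range of 4.23 to 4.90. Leaving out WT mouse 2, at 8.35, gave -1.303 for Atf3, still past the threshold. Results for genes of this list were known when it was written, so its counts and mouse means are no independent evidence of its direction. The mouse means of the 13 genes lay between 5.08 and 5.28 in KO islets and between 5.44 and 5.82 in WT islets. These means include the large falls of Jun, Myc and Atf3, whereas the list median was -0.13, so they do not show a shift of the whole list.

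Of 20 measured p53 target genes only Btg2 passed, and the median over the 20 was -0.11. Btg2, an antiproliferative gene that growth signals also induce, was at 7.30, 7.55, 7.82 and 7.50 in KO mice 1 to 4, against 7.50, 8.80, 8.12 and 8.62 in WT mice 1 to 4. WT mouse 1 lay within the KO range, and the log2 fold change of -0.72 (standard error 0.29) did not pass without WT mouse 2 (-0.54), WT mouse 4 (-0.60), KO mouse 1 (-0.63), KO mouse 2 (-0.72) or KO mouse 4 (-0.70), nor without WT mouse 3 and KO mouse 1 together (-0.68). It also failed to pass after quantile normalization (-0.68) and by the methods' t-test. None of 11 genes for the decay and modification of Mcl-1 and Bim passed, with a median of 0.04 and the lowest unadjusted p for Usp13 at 0.25. Usp13 was near background, at percentiles 76.3 in KO and 72.0 in WT islets of the receptor gauge. None of 14 genes of the mitochondrial membrane passed either. Their median was -0.18, and the lowest unadjusted p belonged to Mfn1, which fuses mitochondria, at -0.43 (standard error 0.27).

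**Figure D4:**
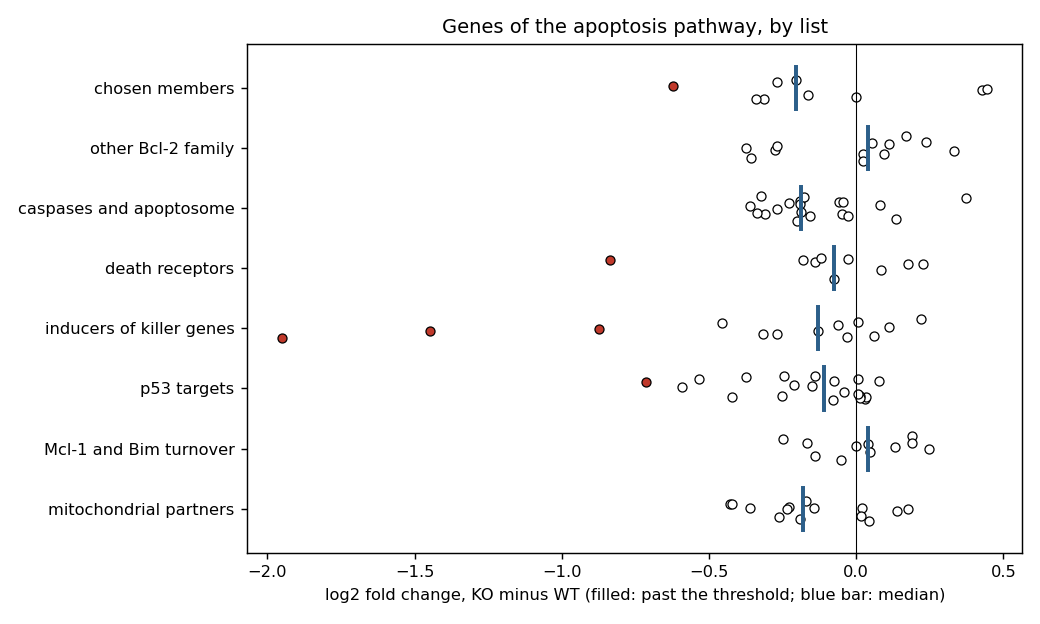
Log2 fold changes, KO minus WT (horizontal axis), of the chosen members and of the genes of 7 further lists (rows), with filled points past the threshold and a blue bar at each median. Every filled point lies left of 0, and the farthest left are Atf3 and Jun, at -1.95 and -1.45.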

How the data were processed

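RNA from islet pools of 4 KO and 4 WT mice was read on Affymetrix Mouse Gene ST arrays, 1 array per mouse. The deposited values are log2 expression per probe set, made by the authors with RMA. The submitters' processing notes name RMA and Partek without versions or settings. No normalization and no filter were added. Symbols came from the platform annotation, updated through Entrez ID for 23328 of 23521 probe sets with 1 gene. Differences between the genotypes were fitted with limma 3.58.1 in R 4.3.3 over all 41345 probe sets, with the study's cutoff and with Benjamini-Hochberg adjustment over all of them. The methods give t tests among those used to compare a pair of groups, without tying one to the array data. The steps were tested on simulated data.

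The genes named are the list members, a set of their relatives taken by role, and, in each further list, those past the threshold or else the one with the lowest p. Members and lists were chosen with earlier results of these data known, so no p was adjusted over a list and no list was tested. Promoter sequences are RefSeq's. Alternatives were 3 normalizations, 3 variance models, the methods' t-test, 2 filters, a replicate block, other probe sets, an exact permutation test, and leaving out mice. Within a genotype, the labels tell the mice apart only by their numbers, and 8 arrays limit the precision.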

Additional observations from a re-analysis of the deposited data

Results flagged for a closer look

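A value far from the other 3 of its genotype was found in 3 of 60 groups of 4 mice examined, where chance marks about 1 group in 20, or about 3. Bcl2l15, a little-studied Bcl-2 relative, was at 2.25 in KO mouse 3, against 1.75 to 1.83 in the other KO mice, and at 3.31 in WT mouse 3, against 1.78 to 1.84 in the other WT mice. Its log2 fold change of -0.28 (standard error 0.35) was 0.10 without WT mouse 3. Fzd9 was at 2.01 in KO mouse 4, against 2.65 to 2.76 in the other KO mice.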

How the results depend on the processing

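Bak1 kept its direction and passed the threshold in 19 of 20 alternatives, between -0.73 and -0.52, and did not pass at the adjusted p (1.00). The number of members past the threshold was 2 after cyclic loess (Bak1 and Bbc3, at 0.51) and 2 with array weights (Bak1 and Bcl2l11), and lay between 1 and 2 when single mice were left out, being 2 without KO mouse 1 and without WT mouse 3. At a Benjamini-Hochberg adjusted p under 0.05 it was 0 of the members and 0 of all probe sets by limma, where 1444 had an unadjusted p under 0.05. The median of the members lay between -0.33 and -0.13 when single mice were left out. The number of probe sets past the threshold was 630 among probe sets brighter than the median (60.6% of them lower, against 45.6% with all) and 770 among those with 1 gene, where fewer were tested, and 1201 to 1913 when single mice were left out. The mouse number recurs in both genotypes, but same-numbered mice had correlated deviations of only -0.10, 0.02, 0.07 and 0.24, so it was not taken to pair them. With the replicate block 1484 probe sets and 1 member (Bak1) passed. Signs turned for Bid, at 0.00029 after quantile normalization, 0.0084 after cyclic loess, 0.025 with array weights, 0.10 without both outlying mice and -0.14 to 0.15 without single mice, for Bcl2 on its second probe set (0.20), for Mcl1 on its second (0.25) and on the mean of both (0.024), for Bcl2l10 after cyclic loess (-0.0029), and, without both outlying mice, for Bcl2l15 (0.14) and Bcl2l2 (-0.059). Without single mice they turned for Bcl2l10 (-0.058 to 0.18), Hrk (-0.051 to 0.31), Bcl2l15 (-0.41 to 0.10) and Bcl2l2 (-0.046 to 0.45). The cause was not tested. Leaving out both mice was added after seeing the data. Genes near the receptor gauge, Mcl1, Pmaip1 and Bid among them, limit what a missing call can show.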
